A study of Mus musculus with 9 samples.

Results

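Genes better known from neurons were followed in mouse bone marrow-derived macrophages (BMDMs) on their way to becoming osteoclasts, the cells that resorb bone. The 6 genes were Camk2a, Cacng8, Slc6a4, Slc18a1, Akap6 and Pde2a, out of 28379 genes in the deposited table, and they were picked by name because their RNA was near zero with PBS and higher with RANKL. The level with PBS and the difference between RANKL and PBS therefore chose them, and both are given here as a description with no test. The label held for 5 of the 6 genes. Pde2a had a mean of 2.40 FPKM (fragments per length of transcript and per depth of the library) with PBS and was not near zero.

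RNA was sequenced from BMDMs of C57BL/6 mice, which were C57BL/6J mice 10 weeks old by the study's methods, in 3 groups of 3 libraries. All cells, controls included, received M-CSF at 20 ng/ml, the growth factor that keeps macrophages alive in culture. The PBS group received PBS in place of the other agents, the RANKL group received RANKL at 100 ng/ml, and cells of the RANKL + Vit D + K group were given the same dose of RANKL together with vitamin D (calcitriol) at 1000 nM and vitamin K (MK4), all for 48 h. The dose of MK4 was 20 µM by the sample labels and 40 µM by the methods. The methods state that libraries were made from pooled RNA, and the number of mice or cultures per library is not given in the sources used here. The p-values below therefore measure the spread between these libraries, which may be technical. The question was which of these RANKL-associated transcripts were altered when the vitamins were present.

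RANKL binds its receptor RANK on macrophage-like precursors and starts a programme that runs through calcium oscillations, calcineurin and the transcription factor NFATc1. Several of the 6 proteins are known from calcium, monoamine and cyclic nucleotide signalling at synapses. Camk2a encodes the alpha subunit of calcium/calmodulin-dependent protein kinase II (CaMKII), and Cacng8 encodes the transmembrane protein gamma-8 (a TARP) that accompanies AMPA-type glutamate receptors. Slc6a4 encodes the serotonin transporter of the plasma membrane, and Slc18a1 encodes the vesicular monoamine transporter VMAT1. Akap6 encodes a scaffold that holds protein kinase A at the nuclear envelope, and Pde2a encodes a phosphodiesterase that breaks down cAMP and cGMP and is stimulated by cGMP.

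The libraries held between 65915112 and 68229647 counts, and 17002 genes passed the filter on low counts. Replicate 2 stood apart in each group, and the RANKL + Vit D + K replicate 2 did so most. Macrophage markers were present in all 9 libraries, with a summed level of 16670 to 30650 FPKM over 8 genes in the PBS and RANKL groups and 4533 to 11580 FPKM with the vitamins. Most of that sum was Lyz2, a lysozyme, with means of 26700, 19800 and 6070 FPKM. With the vitamins against RANKL, 6 of the 8 were called lower by edgeR. Among them, Fcgr1 went from a mean of 10.7 to 1.34 FPKM, Mertk from 26.5 to 6.54 FPKM and Csf1r from 544 to 183 FPKM. Cd68, named after its values were seen, was called higher (552 to 718 FPKM, edgeR adjusted p = 0.0143), a call lost without RANKL replicate 1 or 3. The summed level of 12 osteoclast markers was 30.1 to 39.7 FPKM with PBS, 503.6 to 1054 FPKM with RANKL and 75.3 to 109 FPKM with the vitamins. Cyp24a1, the vitamin D-induced hydroxylase, was listed at 0 with RANKL and at 0.147, 0.410 and 0.240 FPKM with the vitamins. In bulk RNA such as this, fewer cells of a type and less RNA per cell cannot be told apart.

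The deposited table gives a position for each gene. Cacng8 was at chr7:3390683-3415648 and Pde2a at chr7:101421691-101512827, both on the plus strand. Slc6a4 was at chr11:76998603-77032340 and Akap6 at chr12:52699383-53155599, also on the plus strand. Slc18a1 was on the minus strand at chr8:69037711-69089235. Akap6 was the longest of them with 456217 bases, and Cacng8 the shortest with 24966 bases. These positions are those of GRCm38, the build on which 24678 of 28294 matched gene records of GENCODE M21 had the same position and strand.

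Promoter sequences are shown because the 6 genes were chosen for being high together in 1 group. A reader can thus see what annotated start windows of 4 of the genes hold. RefSeq windows on GRCm38.p6, 250 bases before to 50 bases after an annotated start, were matched by symbol for 4 of the 6 genes: Cacng8, Slc6a4, Akap6 and Pde2a. Pde2a had 5 windows, of which the first is printed. The Cacng8 window lay inside the gene, past the gene start at 3390683 given above. What it holds may therefore not be the start region of the whole gene. Capitals mark the core letters GGAAA of NFAT sites on either strand (TTTCC on the strand shown). The windows read 5′ to 3′ and lay at chr7:3393792-3394091 (Cacng8), chr11:76998347-76998646 (Slc6a4), chr12:52699133-52699432 (Akap6) and chr7:101421441-101421740 (Pde2a), all on the plus strand.
Cacng8: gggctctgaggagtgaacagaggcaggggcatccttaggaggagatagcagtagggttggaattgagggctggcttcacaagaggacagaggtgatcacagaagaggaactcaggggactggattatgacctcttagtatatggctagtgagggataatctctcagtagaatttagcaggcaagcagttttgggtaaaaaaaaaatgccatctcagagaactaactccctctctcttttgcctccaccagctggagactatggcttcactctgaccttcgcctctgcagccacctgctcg
Slc6a4: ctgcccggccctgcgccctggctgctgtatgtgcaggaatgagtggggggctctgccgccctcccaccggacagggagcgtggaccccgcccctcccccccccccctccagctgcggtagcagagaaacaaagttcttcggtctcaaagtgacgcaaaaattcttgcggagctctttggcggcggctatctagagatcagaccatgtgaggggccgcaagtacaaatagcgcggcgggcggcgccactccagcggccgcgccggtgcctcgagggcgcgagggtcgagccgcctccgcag
Akap6: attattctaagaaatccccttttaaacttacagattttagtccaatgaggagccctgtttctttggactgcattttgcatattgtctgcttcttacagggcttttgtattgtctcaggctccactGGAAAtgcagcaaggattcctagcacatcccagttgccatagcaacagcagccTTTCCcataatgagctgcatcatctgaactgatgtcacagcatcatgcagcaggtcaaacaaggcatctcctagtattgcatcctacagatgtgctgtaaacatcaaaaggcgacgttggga
Pde2a: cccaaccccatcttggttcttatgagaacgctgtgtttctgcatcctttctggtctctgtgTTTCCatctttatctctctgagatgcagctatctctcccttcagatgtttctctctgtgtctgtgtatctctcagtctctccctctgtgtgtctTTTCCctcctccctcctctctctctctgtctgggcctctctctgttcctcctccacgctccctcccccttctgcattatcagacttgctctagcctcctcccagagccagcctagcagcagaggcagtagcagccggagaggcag

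GGAAA occurred in 3 of the 8 windows, namely the Akap6 window with 2 matches and 2 of the Pde2a windows, and in 61.3% of all 32851 RefSeq windows of the same length. The Cacng8 and Slc6a4 windows held no match. TGANTCA, the letters of AP-1 sites, was in 0 of the 8 windows and in 7.81% of all windows. CANNTG, the E-box, was in 7 of the 8 windows and in 72.3% of all, and its longer form TCANNTGA, bound by MITF-type factors, was in 1 of the 8 and in 8.39% of all. TGACG, the short cAMP response letters, was in 2 of the 8 and in 20.8% of all, and the full TGACGTCA was in 0 of the 8 and in 1.79% of all. TTCAGCACC, part of the element through which REST silences neuronal genes outside neurons, was in 0 of the 8 and in 0.371% of all windows. GAGGAAG, the letters of PU.1 sites, was in 1 of the 8 and in 13.6% of all. All searches covered both strands, TGACG lies within TGACGTCA, and TCANNTGA lies within the E-box matches. The GC content was 50% in the Cacng8 window, 67.7% in that of Slc6a4, 43.7% in that of Akap6 and 53.3% in the Pde2a window shown, with a median of 52.7% over all windows.

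The kinase subunit Camk2a was at 0.0896, 0.141 and 0.0655 FPKM in the 3 PBS libraries, at 1.48, 1.73 and 1.36 FPKM with RANKL, and at 0.125, 0.344 and 0.190 FPKM with RANKL and the vitamins. The RANKL libraries were far above all others, and the ranges of the PBS and vitamin libraries overlapped. The group means were 0.0986 ± 0.0384, 1.52 ± 0.187 and 0.220 ± 0.113 FPKM (SD, n = 3). Camk2a was the steadiest of the 6 genes among the RANKL libraries, with a coefficient of variation of 12.3%.

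The AMPA receptor companion Cacng8 was at 0.110, 0.0931 and 0.0489 FPKM with PBS and at 1.58, 1.94 and 1.33 FPKM with RANKL. With the vitamins it was at 0.00274, 0.256 and 0.101 FPKM, which are 1, 47 and 19 counts. Again the RANKL libraries did not overlap with either of the other groups, while the vitamin libraries spread below and above the PBS ones. The means were 0.0840 ± 0.0315 FPKM with PBS, 1.62 ± 0.304 FPKM with RANKL and 0.120 ± 0.128 FPKM with the vitamins (SD, n = 3).

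The serotonin transporter Slc6a4 was listed at 0, 0 and 0.0453 FPKM with PBS, so that its PBS level rests on 16 counts in replicate 3. It was at 1.59, 2.68 and 1.38 FPKM with RANKL and at 0.0998, 0.134 and 0.0109 FPKM with the vitamins. The lowest vitamin library lay below the highest PBS library, so these groups overlapped, and the RANKL libraries stood clear of both. The means were 0.0151 ± 0.0262, 1.88 ± 0.699 and 0.0815 ± 0.0634 FPKM (SD, n = 3).

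The vesicular transporter Slc18a1, which loads monoamines into storage vesicles, was at 0.05, 0.0547 and 0.0181 FPKM with PBS. It was at 1.11, 1.95 and 0.549 FPKM with RANKL and at 0.0986, 0.146 and 0.234 FPKM with the vitamins. For this gene no pair of groups overlapped, and the vitamin libraries lay between the others. The RANKL libraries spread over 3.54-fold from lowest to highest, the widest range of the 6 genes. The means were 0.0409 ± 0.0199, 1.20 ± 0.702 and 0.160 ± 0.0687 FPKM (SD, n = 3).

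The scaffold Akap6 was listed at 0, 0.0109 and 0 FPKM with PBS, that is 13 counts in replicate 2 alone. It was at 1.05, 2.82 and 0.805 FPKM with RANKL and at 0.137, 0.266 and 0.217 FPKM with the vitamins. As for Slc18a1, no groups overlapped and the vitamin libraries were in between. The means were 0.00363 ± 0.00629, 1.56 ± 1.10 and 0.207 ± 0.0649 FPKM (SD, n = 3).

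The phosphodiesterase Pde2a was at 3.37, 1.96 and 1.87 FPKM with PBS, at 9.13, 11.8 and 9.09 FPKM with RANKL and at 1.70, 3.24 and 1.94 FPKM with the vitamins. The RANKL libraries were again above all others, and the PBS and vitamin libraries were intermixed. The means were 2.40 ± 0.841, 10.0 ± 1.55 and 2.29 ± 0.830 FPKM (SD, n = 3). Per length, Pde2a as listed was the most abundant of the 6 genes in each group and in each library. Its level is uncertain, since a gene model on the same strand shares 64.3% of its exonic bases, as described below.

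**Figure D1:**
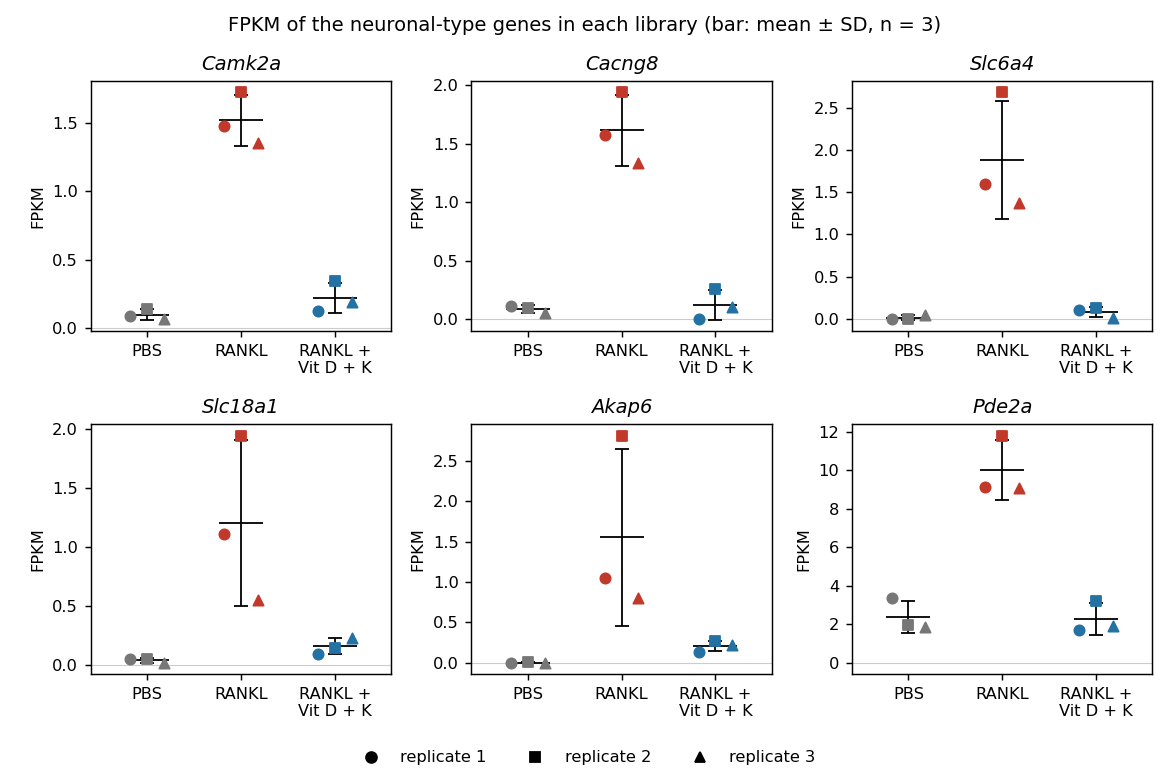
FPKM (vertical axis, linear, a scale of its own for each gene) of the 6 genes in the 9 libraries by group, with circles, squares and triangles for replicates 1, 2 and 3, and the mean and SD as bars (n = 3). In each panel the 3 RANKL points lie above all PBS and vitamin points, and RANKL replicate 2 is the highest.

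With RANKL, the means of the other 5 genes ran from 1.20 FPKM for Slc18a1 through 1.52 for Camk2a, 1.56 for Akap6 and 1.62 for Cacng8 to 1.88 for Slc6a4. Neighbours in this order did not differ beyond their SDs. These levels were between percentiles 35.9 and 41.9 of the mean FPKM of the genes tested, while Pde2a was at percentile 74.6. With PBS the same 5 genes were between percentiles 0.806 and 10.7.

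The ratio of mean FPKM between RANKL and PBS was 4.18 for Pde2a, 15.4 for Camk2a, 19.3 for Cacng8 and 29.4 for Slc18a1. The ratios of 124.7 for Slc6a4 and 429.0 for Akap6 rest on the few counts of 1 PBS library each. The counts of the groups did not overlap for 6 of 6 genes, and 24.2% of all genes tested were higher with RANKL without overlap. By edgeR's quasi-likelihood test with an adjusted p under 0.05, 2.35% of all genes were called higher with RANKL and 1.26% lower. Since the genes were picked for this difference, nothing is read from either share.

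All 6 genes passed the filter on low counts. Slc6a4 and Cacng8 had at least 10 counts in every library only in the RANKL group, Slc18a1 and Akap6 in a second group too, and Camk2a and Pde2a in all groups. The vitamins were compared with RANKL in a fit over all genes and all 9 libraries. The RANKL libraries of this comparison are those that made the genes eligible, and the study itself screened these same libraries for genes that were high with RANKL and low with the vitamins. The calls are therefore not independent evidence of their direction.

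With the vitamins, 6 of 6 genes were called lower than with RANKL, while 17.2% of all genes tested were called lower and 16.4% higher. The counts of the groups did not overlap for 6 of 6 genes, against 28.3% of all genes tested that were lower without overlap. Slc6a4 had the largest fitted difference, a log2 fold change of −4.36 (SE 1.08, edgeR adjusted p = 0.0147). The log2 fold change was −3.60 for Cacng8 (SE 0.821, edgeR adjusted p = 0.0105) and −2.68 for Camk2a (SE 0.363, edgeR adjusted p = 0.00139). Both synaptic signalling genes were thus below their RANKL level in all 3 vitamin libraries. Slc18a1 had a log2 fold change of −2.74 (SE 0.539, edgeR adjusted p = 0.00596), and Pde2a had one of −2.0 (SE 0.269, edgeR adjusted p = 0.00135). Akap6 had a log2 fold change of −2.75 (SE 0.719, edgeR adjusted p = 0.0182). The Akap6 call was lost without RANKL replicate 2, its highest library, where the log2 fold change was −2.07 (edgeR adjusted p = 0.0755). It was also lost without RANKL + Vit D + K replicate 1 (edgeR adjusted p = 0.0588) or replicate 3 (edgeR adjusted p = 0.0643) and with DESeq2 (adjusted p = 0.0531). An exact two-sided permutation test of 3 against 3 libraries gave p = 0.1 for each gene, the smallest value that design allows.

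Without RANKL replicate 2, the log2 fold changes of the other 5 genes with the vitamins were between −1.90 for Pde2a and −4.07 for Slc6a4. Without RANKL + Vit D + K replicate 2, all 6 genes were called, from −2.24 for Pde2a to −4.81 for Slc6a4. Across all genes, the vitamins against RANKL gave 2796 higher and 2929 lower calls, so that 48.8% of the calls were higher, whereas limma on log2(FPKM + 0.1) gave 35.6%.

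The vitamin libraries were also compared with the PBS libraries. Against PBS, 3 of 6 genes were called higher, and 0 of 6 lower, while 19.8% of all genes tested were called higher and 21.0% lower. The PBS values were part of what chose the genes. Akap6 stayed furthest above, with a log2 fold change of 5.70 (SE 0.948, edgeR adjusted p = 0.00194) that rests on a PBS group with counts in 1 library. Slc18a1 had a log2 fold change of 1.95 (SE 0.556, edgeR adjusted p = 0.0213) and Camk2a one of 1.14 (SE 0.356, edgeR adjusted p = 0.0306). The Camk2a call was lost without PBS replicate 1 (edgeR adjusted p = 0.0867) or 3 (0.0942), without RANKL replicate 1 (0.0516) and without RANKL + Vit D + K replicate 2 (0.0717) or 3 (0.0526). With only the groups compared, Camk2a was not called either (edgeR adjusted p = 0.0956). With limma on log2(FPKM + 0.1) Akap6 alone was called, and with log2(FPKM + 1) none of the 3 was. The Slc18a1 call was lost without PBS replicate 1 (edgeR adjusted p = 0.051) or 3 (0.0673) and without RANKL + Vit D + K replicate 3 (0.0729). Of the 6 genes only Slc18a1 and Akap6 had vitamin libraries wholly above the PBS libraries, and none of the 6 had them wholly below. Of all genes tested, 25.3% were higher and 26.3% lower without overlap. An exact two-sided permutation test gave p = 0.1 for these and 0.2 for Camk2a.

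For the other 3 genes the difference between vitamins and PBS was not called. The log2 fold change was 2.36 for Slc6a4 (SE 1.17, edgeR adjusted p = 0.134), and without PBS replicate 3, the only PBS library with counts of this gene, it was called (edgeR adjusted p = 0.0168). It was 0.50 for Cacng8, with a 95% interval of −1.31 to 2.3 (edgeR adjusted p = 0.655). It was −0.07 for Pde2a, with a 95% interval of −0.66 to 0.52 (edgeR adjusted p = 0.854). These intervals leave room for a change of more than 2-fold in either direction for Cacng8, and of less than that for Pde2a.

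**Figure D2:**
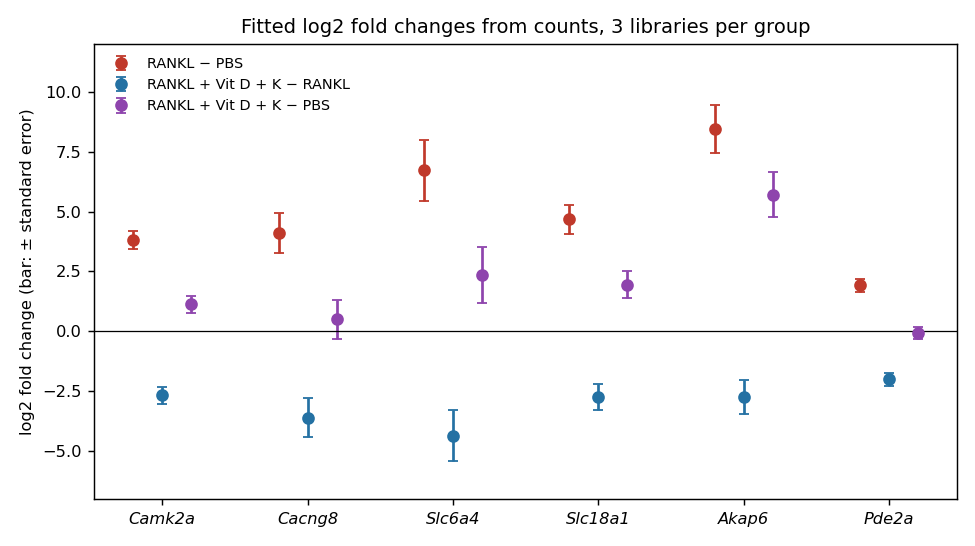
Fitted log2 fold changes (vertical axis) of the 6 genes (horizontal axis) for RANKL minus PBS in red, RANKL + Vit D + K minus RANKL in blue and RANKL + Vit D + K minus PBS in purple, with bars of ± 1 standard error. The blue points lie between −4.36 and −2.0, and the purple points run from −0.07 for Pde2a to 5.70 for Akap6. The red points are a description, since they chose the genes.

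The part of the difference between RANKL and PBS that was left with the vitamins was computed in each vitamin library from FPKM, as its distance from the PBS mean in percent of the distance between the RANKL and PBS means. It was 8.60, 16.9 and 13.7% for Akap6 and 4.96, 9.06 and 16.6% for Slc18a1, so both genes were above the PBS mean in all 3 vitamin libraries. For Camk2a it was 1.83, 17.3 and 6.40%, also above the PBS mean in all 3. For Slc6a4 it was 4.54, 6.35 and −0.227%. Cacng8, at −5.30, 11.2 and 1.14%, and Pde2a, at −9.21, 11.1 and −6.03%, fell on both sides of the PBS mean. The means were 13.1% for Akap6, 10.2% for Slc18a1, 8.5% for Camk2a, 3.55% for Slc6a4, 2.35% for Cacng8 and −1.39% for Pde2a. The SDs were between 3.40 and 10.9 percentage points (n = 3), so the order of neighbouring genes is within the spread. Of 12 osteoclast markers, 10 were called lower with vitamins against RANKL and 1, the integrin gene Itgb3, which is named after its values were seen, was called higher. The mean percent left was −0.335% for the phosphatase Acp5, 10.2% for the protease Ctsk and −0.0151% for the collagen receptor Oscar. It was −30.8% for the transcription factor gene Nfatc1, with means of 9.455 FPKM with PBS, 18.17 with RANKL and 6.775 with the vitamins. It was 70.9% for Atp6v0d2, a proton pump subunit also named after its values were seen, whose 3 libraries were at 120, 30.03 and 62.6%. Itgb3, with means of 1.02 FPKM with PBS, 3.17 with RANKL and 11.5 with the vitamins, was at 810.5, 130.7 and 522.9% (log2 fold change of vitamins against RANKL 2.08, edgeR adjusted p = 0.0186). That call was lost without RANKL replicate 1 or 3 or RANKL + Vit D + K replicate 1 or 3.

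**Figure D3:**
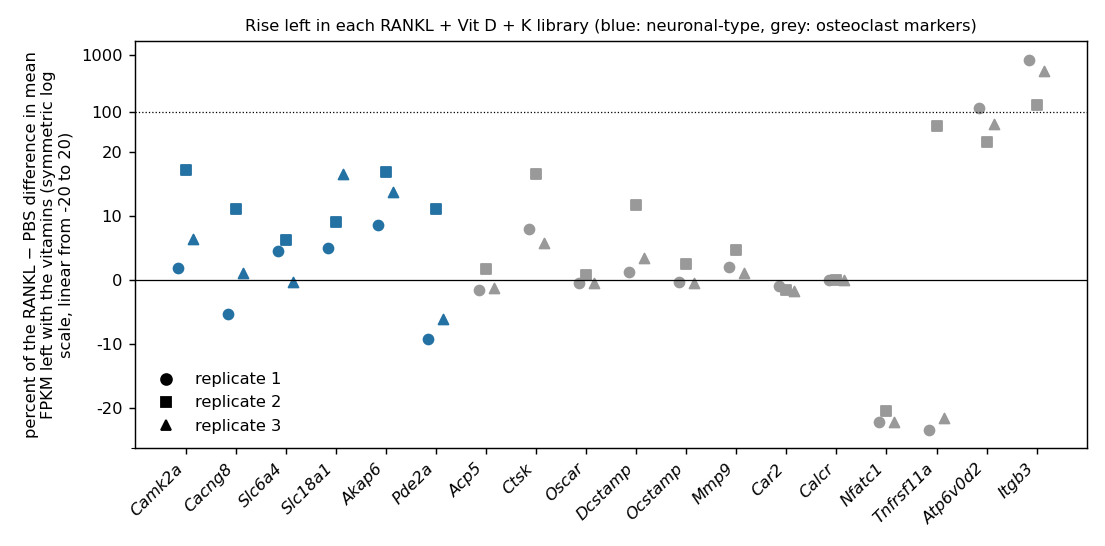
Percent of the RANKL minus PBS difference in mean FPKM that was left in each RANKL + Vit D + K library (vertical axis, a symmetric log scale that is linear from -20 to 20), for the 6 neuronal-type genes in blue and 12 osteoclast markers in grey, with circles, squares and triangles for replicates 1, 2 and 3. The solid line is the PBS mean and the dotted line the RANKL mean. The blue points lie between −9.21% and 17.3%, and the points above the dotted line are the 3 of Itgb3 and 1 of Atp6v0d2.

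The order of the RANKL libraries was the same for each gene. RANKL replicate 2 was the highest and RANKL replicate 3 the lowest of the 3 RANKL libraries for 6 of 6 genes. The same held for 12 of 12 osteoclast markers and for 7 of 7 neutrophil markers tested. Over all genes tested, 47.1% were highest in replicate 2 and 37.0% lowest in replicate 3, and of the 400 genes called higher with RANKL these shares were 85.5% and 69.5%. The highest RANKL library was 1.27 times the lowest for Camk2a, 1.3 times for Pde2a, 1.45 times for Cacng8 and 1.95 times for Slc6a4. It was 3.50 times the lowest for Akap6 and 3.54 times for Slc18a1. Among the vitamin libraries, replicate 2 was the highest for 5 of 6 genes, the exception being Slc18a1.

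Pan-neuronal markers were counted in the same libraries. Of 20 pan-neuronal markers, 17 were in the table and 8 passed the filter. By edgeR 0 of the 8 were called between RANKL and PBS, 1 (Syp) had an unadjusted p under 0.05 and 1 was called by DESeq2. Their median log2 fold change was −0.53 beside −0.04 for all genes tested. The summed level of the 17 genes was 2.33 to 2.98 FPKM with PBS, 2.29 to 2.97 FPKM with RANKL and 2.01 to 4.48 FPKM with the vitamins, so the groups overlapped. Syn1, a synaptic vesicle phosphoprotein, made up most of that sum, with means of 1.67, 2.02 and 2.31 FPKM. Elavl4, Dcx, Slc17a6 and Gad2, markers of neuronal identity or transmitter type, were at 0 in all 3 RANKL libraries, and Map2, Snap25 and Syt1 had means of 0.00929, 0.0147 and 0.0114 FPKM there. Syp, which encodes the vesicle protein synaptophysin, was called lower with the vitamins than with RANKL (log2 fold change −1.85, SE 0.261, edgeR adjusted p = 0.00159). It was the 1 of the 8 called lower there, and 2 were with DESeq2 or without RANKL + Vit D + K replicate 2. In the main fit 0 of the 8 were called higher there. With DESeq2, both limma fits, the replicate block or without RANKL replicate 2, 1 was called higher. The median log2 fold change of the 8 with vitamins against RANKL was 0.47, beside −0.04 for all genes tested.

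Markers of blood cells that also carry serotonin or granules were summed as well. Over 4 mast cell and basophil genes the level was 0.0905 to 0.178 FPKM with RANKL, 0.00765 to 0.120 FPKM with PBS and 0.0348 to 0.355 FPKM with the vitamins. Over 8 megakaryocyte and platelet genes it was 7.16 to 17.6 FPKM with RANKL, 11.8 to 38.9 FPKM with PBS and 10.8 to 21.8 FPKM with the vitamins. Neither list had a gene called between RANKL and PBS by edgeR, DESeq2 or limma or with an unadjusted edgeR p under 0.05. With the vitamins against RANKL, 1 of 3 mast cell and basophil genes tested and 1 of 5 megakaryocyte and platelet genes tested were called lower, as the 6 genes were, and their part in those values was not tested. The first was Hdc, which encodes the enzyme that makes histamine, at 0.0361 to 0.0635 FPKM with RANKL and listed at 0 in all vitamin libraries (edgeR adjusted p = 0.0263). The Hdc call was lost with limma, without any 1 RANKL library and without RANKL + Vit D + K replicate 1 or 3. The second was the platelet receptor gene Gp1ba, with means of 0.490 FPKM with RANKL and 0.103 FPKM with the vitamins (log2 fold change −2.1, SE 0.415, edgeR adjusted p = 0.00599). Without RANKL + Vit D + K replicate 2, 2 megakaryocyte and platelet genes were called lower, and without RANKL replicate 2, 1 was called higher. Neutrophil markers were at 11.1 to 128.1 FPKM with PBS and 11.3 to 147.9 FPKM with RANKL, with 0 of 7 genes called by edgeR, DESeq2 or limma and 0 of 7 with an unadjusted edgeR p under 0.05, and at 0.551 to 1.72 FPKM with the vitamins, where 6 of 7 were called lower than with RANKL. This list ranked the RANKL libraries in the order of the 6 genes and was lower with the vitamins too, and its part in their values was not tested.

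Among the kinases related to Camk2a, the CaMKII family had 4 genes in the table. Camk2g, the gamma subunit found in many tissues, was the highest in each group, with a mean of 4.64 FPKM with PBS, 4.71 with RANKL and 4.56 with the vitamins. Camk2a made up 1.51% of the summed CaMKII FPKM with PBS, 18.8% with RANKL (17.8 to 20.1% over the 3 libraries) and 2.52% with the vitamins (1.37 to 4.04%). Camk2d had means of 1.62, 1.80 and 4.04 FPKM and was called higher with the vitamins than with RANKL (log2 fold change 1.35, SE 0.222, edgeR adjusted p = 0.00302), the opposite direction to Camk2a. Camk2b had means of 0.112, 0.0517 and 0.0150 FPKM and was not called. Besides Camk2a, 8 calmodulin kinase genes and inhibitors were tested. Between RANKL and PBS, 0 of the 8 were called by edgeR or had an unadjusted edgeR p under 0.05, and 0 were called by DESeq2. With the vitamins against RANKL, 1 of the 8 was called higher and 3 lower, with a median log2 fold change of −0.47 beside −0.04 for all genes. Camkk2, the kinase that activates CaMKI and AMPK, went from a mean of 13.3 FPKM with RANKL to 3.17 FPKM with the vitamins (log2 fold change −1.98, SE 0.383, edgeR adjusted p = 0.00555), and Camk1d and Camk1 were also called lower (log2 fold change −0.85 and −0.49), the latter not without RANKL replicate 1.

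Cacng8 had the highest mean of 6 TARP genes in each group. It made up 99.1 to 100% of their summed FPKM in the RANKL libraries, 32.5 to 100% with PBS and 17.4 to 100% with the vitamins, where the summed means were 0.118 and 0.129 FPKM. Cacng7 reached 0.102 FPKM in PBS replicate 3, above the 0.0489 FPKM of Cacng8 there. The other 5, Cacng2, Cacng3, Cacng4, Cacng5 and Cacng7, did not pass the filter. Of 16 AMPA receptor and TARP genes in the table, 6 passed the filter, Cacng8 among them. Of the other 5, edgeR called 0 between RANKL and PBS, where 1 had an unadjusted p under 0.05, and 1 was called lower with DESeq2 and with the replicate block. It called 0 of them between the vitamins and RANKL, where 0 had an unadjusted p under 0.05 and DESeq2 called 0, but 1 was called lower without RANKL replicate 2. Gria1, a pore subunit of the AMPA receptor, was listed at 0 in all libraries. Of 10 voltage-gated calcium channel subunits, none of them a gene chosen here, 1 was called higher and 1 lower with RANKL than with PBS. The number called higher was 2 with the replicate block or DESeq2 and 0 to 2 with 1 library left out. When the vitamins were added to RANKL, 2 were called higher and 6 lower. Without RANKL replicate 1 or replicate 3, the last counts were 0 higher and 3 lower, so they rest on those libraries. Of the 2 called higher, 1 was left without RANKL replicate 2, PBS replicate 3 or RANKL + Vit D + K replicate 1 or 3. Their median log2 fold change with the vitamins was −1.16, beside −0.04 for all genes. Cacna1b, the pore of the N-type channel, had means of 0.0130, 0.131 and 0.549 FPKM. It was called higher with RANKL (log2 fold change 3.09, SE 0.592, edgeR adjusted p = 0.0258) and higher again with the vitamins (2.25, SE 0.534, edgeR adjusted p = 0.0124). The auxiliary subunit Cacnb3 had means of 0.810, 0.309 and 0.0542 FPKM and was called lower in both steps (log2 fold change −1.51, SE 0.325, edgeR adjusted p = 0.0403, and −2.30, SE 0.347, edgeR adjusted p = 0.00207). Cacnb4 was called lower with the vitamins (log2 fold change −2.57, SE 0.427, edgeR adjusted p = 0.00308), and so was Cacnb2 (−2.78, SE 0.922, edgeR adjusted p = 0.0442). The RANKL against PBS calls of Cacna1b and Cacnb3 and the Cacnb2 call were each lost when 1 of several libraries was left out, and the vitamins against RANKL call of Cacna1b was lost without RANKL replicate 1 or 3.

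The monoamine genes included both chosen transporters. Of 18 genes for synthesis, transport and breakdown in the table, 10 passed the filter, the chosen pair among them. Of the other 8, 1 was called higher with RANKL than PBS, namely Qdpr, a pterin reductase named after its values were seen, and this call was lost without any 1 of the PBS or RANKL libraries. Once the vitamins were added to RANKL, 2 of the 8 were called higher and 2 lower. With 1 library left out these counts were 0 to 2 and 1 to 4, with none higher without RANKL replicate 1 or 2 and 4 lower without RANKL + Vit D + K replicate 2. The medians of the 8 were 0.20 and −0.35 on the log2 scale. Genes that make serotonin were at or near 0: Tph1, the peripheral tryptophan hydroxylase, was listed at 0 in all 9 libraries. The noradrenaline and dopamine transporters Slc6a2 and Slc6a3 were also listed at 0 throughout. Slc18a2, which encodes the other vesicular monoamine transporter VMAT2, had means of 0.246, 0.303 and 0.595 FPKM and was called in neither comparison (edgeR adjusted p = 0.893 and 0.106). Slc18a1 thus made up 15.2% of the summed FPKM of the pair with PBS, 76.0% with RANKL (51.1 to 90.1%) and 21.2% with the vitamins. Maoa, which oxidises serotonin, had means of 3.76, 4.80 and 10.6 FPKM and was called higher with the vitamins than with RANKL (log2 fold change 1.32, SE 0.371, edgeR adjusted p = 0.0240), a call lost without any 1 of the RANKL libraries. Pts, a step of tetrahydrobiopterin synthesis, was called lower with the vitamins (log2 fold change −1.57, SE 0.360, edgeR adjusted p = 0.0109).

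Of 8 serotonin receptor genes in the table, 4 passed the filter. Htr2b, a Gq-coupled receptor, had means of 5.22 FPKM with PBS, 1.19 with RANKL and 3.03 with the vitamins. It was called lower with RANKL (log2 fold change −2.24, SE 0.402, edgeR adjusted p = 0.0199) and higher with the vitamins than with RANKL (1.5, SE 0.394, edgeR adjusted p = 0.0185), the reverse of the pattern of Slc6a4. Without any 1 of the PBS libraries, or without RANKL replicate 1 or 2, the first of these calls was lost, and without RANKL replicate 1 or RANKL + Vit D + K replicate 3 the second. Htr1b was at 0.0387 to 0.378 FPKM and Htr1f at 0.0641 to 0.0759 FPKM with RANKL, and both were listed at 0 in all vitamin libraries and called lower there (edgeR adjusted p = 0.00902 and 0.0225). The Htr1f call was lost with the replicate block, without any 1 of the RANKL libraries and without RANKL + Vit D + K replicate 1 or 3.

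In the wider SLC6 family of sodium-coupled transporters, Slc6a4 had the fifth highest mean of 16 genes with RANKL and the seventh in the other groups. Slc6a6, the taurine transporter, was the highest with 154.5, 144.4 and 104.3 FPKM. Besides Slc6a4, 8 were tested, of which 1 was called higher and 1 lower with RANKL than PBS, and 2 higher and 3 lower with vitamins against RANKL, with medians of 0.46 and −0.66. Slc6a13, a GABA transporter, had means of 0.509, 1.96 and 0.424 FPKM and was called higher with RANKL than PBS and lower with vitamins against RANKL (log2 fold change 1.82, SE 0.246, edgeR adjusted p = 0.00749, and −2.08, SE 0.248, edgeR adjusted p = 0.000892). Slc6a9, the glycine transporter GlyT1, had means of 2.77, 0.912 and 7.53 FPKM and was called in the opposite directions to Slc6a13 (−1.74, SE 0.187, edgeR adjusted p = 0.00228, and 3.20, SE 0.197, edgeR adjusted p = 0.000120). Slc6a12, the betaine transporter, was called lower with the vitamins (−2.93, SE 0.498, edgeR adjusted p = 0.00333), and the creatine transporter Slc6a8 was called higher (1.62, SE 0.238, edgeR adjusted p = 0.00188).

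Akap6 was a minor member of the A-kinase anchoring proteins even where it was highest. It made up 0.00647% of the summed FPKM of 13 such genes with PBS, 2.67% with RANKL and 0.373% with the vitamins, and it ranked 13, 9 and 10 among them. Besides Akap6, 11 were tested, of which 0 were called between RANKL and PBS by edgeR or DESeq2 and 0 had an unadjusted edgeR p under 0.05. With vitamins against RANKL 5 of the 11 were called higher and 1 lower, beside 16.4% and 17.2% of all genes tested. None of the 5 was called without RANKL + Vit D + K replicate 3, and 1 to 3 were without any 1 RANKL library, PBS replicate 1 or RANKL + Vit D + K replicate 1, so nothing is read from that count. The median log2 fold change was 0.37, beside −0.04 for all genes. Akap13, which also activates RhoA, had means of 12.2, 10.9 and 3.30 FPKM (vitamins against RANKL −1.59, SE 0.146, edgeR adjusted p = 0.000362). Akap10, a mitochondrial anchor, rose from 11.1 to 16.5 FPKM with the vitamins (0.75, SE 0.181, edgeR adjusted p = 0.0136), a call lost without RANKL or RANKL + Vit D + K replicate 3. Akap3 was called higher too (1.91, SE 0.520, edgeR adjusted p = 0.0212), though not without RANKL replicate 1 or 2 or RANKL + Vit D + K replicate 3. Akap5, the anchor best known from synapses, was not called.

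Pde2a ranked second of 23 phosphodiesterase genes with RANKL, seventh with PBS and sixth with the vitamins. Its share of their summed FPKM was 5.75% with PBS, 21.4% with RANKL (19.8 to 24.6%) and 5.59% with the vitamins. Pde8a, a cAMP-specific enzyme, was the highest in each group with means of 11.6, 12.4 and 13.4 FPKM. Besides Pde2a, 16 were tested, of which 1 was called higher with RANKL than PBS, and 5 higher and 3 lower with vitamins against RANKL, with medians of −0.07 and 0.06. The last counts were 3 higher and 1 lower without RANKL replicate 1 or 3, and 3 were higher without RANKL replicate 2, PBS replicate 1 or RANKL + Vit D + K replicate 1. The one called with RANKL was Pde10a, at means of 0.00930, 0.0917 and 0.0300 FPKM (log2 fold change 3.08, SE 0.701, edgeR adjusted p = 0.0484), which was lost when any 1 of the PBS or RANKL libraries was left out. Pde4b, a cAMP-specific enzyme of immune cells, was called lower with the vitamins (−3.46, SE 0.941, edgeR adjusted p = 0.0214), a call lost with only the groups compared and without RANKL replicate 1 or 3 or RANKL + Vit D + K replicate 3. Pde4d was called higher (1.65, SE 0.296, edgeR adjusted p = 0.00408).

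On the producing side of cyclic nucleotides, 16 cyclase and kinase genes were tested. With RANKL against PBS 1 was called lower, namely the kinase subunit Prkar2b, named after its values were seen, and not without PBS replicate 1 or 3 or RANKL replicate 1 or 2. The other 15 were not called, though without RANKL + Vit D + K replicate 2 the counts were 1 higher and 2 lower, and 2 were called higher and 6 lower with vitamins against RANKL. Their median log2 fold changes were −0.18 and −0.43, beside −0.04 in both comparisons for all genes. Adcy6, an adenylate cyclase, was at 0.0347 to 0.0413 FPKM with RANKL and listed at 0 in all vitamin libraries (edgeR adjusted p = 0.00387), a call lost with limma on log2(FPKM + 1). Adcy2, another cyclase, had means of 0.0557 FPKM with RANKL and 0.374 FPKM with the vitamins and was called higher (log2 fold change 2.89, SE 0.835, edgeR adjusted p = 0.0267), a call lost with limma, without any 1 RANKL library and without RANKL + Vit D + K replicate 1 or 3. Adcy3, also a cyclase, had means of 1.63, 3.09 and 0.457 FPKM and was called lower with the vitamins (log2 fold change −2.61, SE 0.247, edgeR adjusted p = 0.000394). The cGMP-dependent kinase gene Prkg1, at means of 0.0556, 0.0105 and 0.123 FPKM, was called higher (3.68, SE 0.808, edgeR adjusted p = 0.00910), though not with limma on log2(FPKM + 1).

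**Figure D4:**
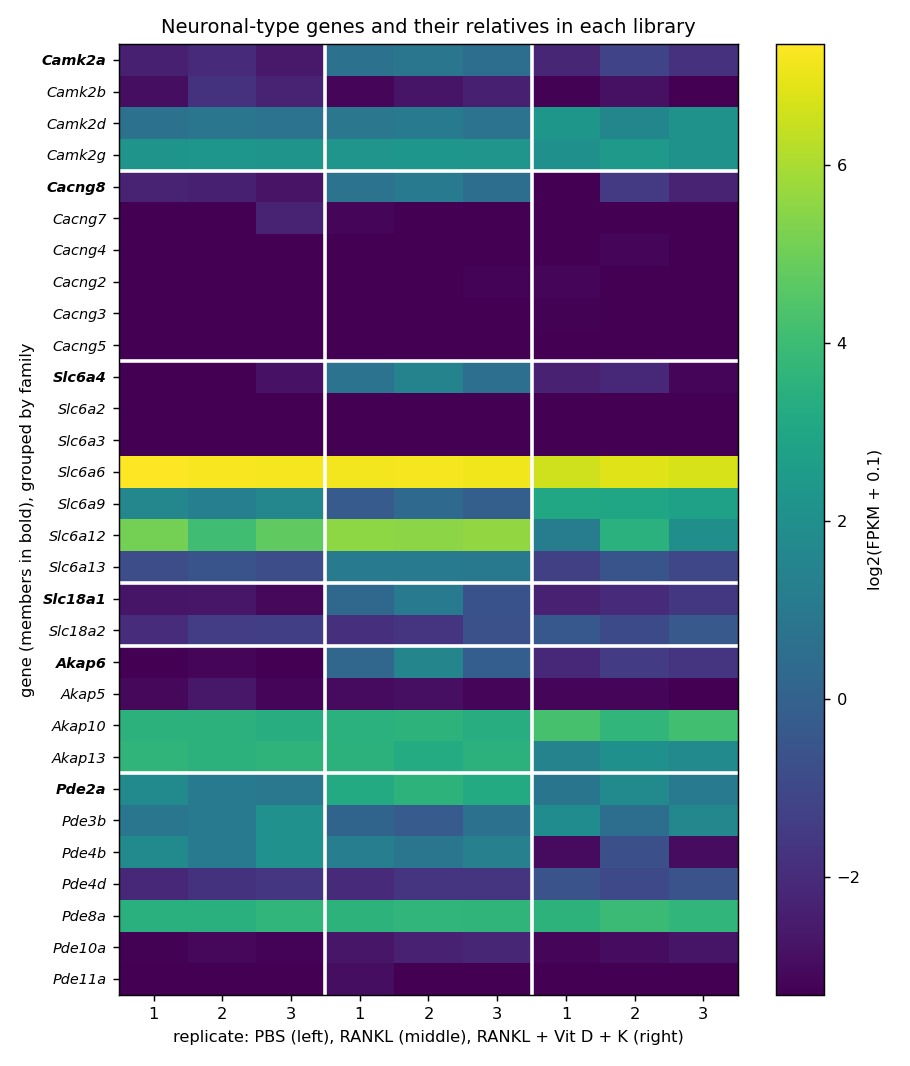
log2(FPKM + 0.1) (color scale) of the 6 neuronal-type genes in bold and of relatives from their families (rows), in the 9 libraries (columns, replicates 1 to 3 of PBS, RANKL and RANKL + Vit D + K from left to right). The bold rows are brightest in the middle block, whereas Camk2g, Slc6a6 and Pde8a are bright in all blocks and Slc6a9 is darkest in the middle one.

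The annotation terms in the deposited table were counted over the 6 genes. Camk2a, Slc6a4 and Slc18a1 carried the term synapse, as did 3.76% of the 12763 tested genes with such terms. Slc6a4 and Slc18a1 shared serotonin uptake, a term on 3 tested genes, and Akap6 and Pde2a shared the cellular response to cAMP, a term on 35 tested genes. Camk2a and Cacng8 shared calcium ion transport, a term on 83 tested genes.

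The genes whose pattern was most like each member were listed by the Pearson correlation of log2(FPKM + 0.1) over the 9 libraries, among 15966 genes with a mean of at least 0.1 FPKM in a group. The points share 3 groups of libraries, so the values are a description. For Camk2a they were Fcna (r = 0.995), Slc9b2 (0.991) and Ssc5d (0.987), and for Cacng8 they were Spns3 (0.989), Ephx2 (0.988) and Oaf (0.987). For Slc6a4 they were Rufy4 (0.996), C730036E19Rik (0.995) and Sema7a (0.990), and for Slc18a1 they were Kif13a (0.986), Sucnr1 (0.971) and Gm8941 (0.970). For Akap6 they were Acsl1 (0.993), Uqcrc2 (0.988) and Pdha1 (0.986), and for Pde2a they were Ccl22 (0.992), Bcat2 (0.983) and Gpr55 (0.979). These lists depend on the pseudocount. With log2(FPKM + 1), the 3 most alike shared no gene with those named for Cacng8, Slc18a1 and Akap6, and kept Slc9b2 for Camk2a, Rufy4 and C730036E19Rik for Slc6a4, and Ccl22 and Bcat2 for Pde2a. Among the 6 genes themselves r was between 0.864 and 0.980, as the choice of genes with 1 pattern would give.

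Some reads may not belong to the named gene. Gm45837, a gene model on the same strand, shares 3955 of the 6149 exonic bases annotated for Pde2a (64.3%). Gm45837 was at 3.99, 3.96 and 4.40 FPKM with PBS, 6.56, 12.9 and 5.67 FPKM with RANKL and 2.19, 13.5 and 3.52 FPKM with the vitamins, and it was called in neither comparison (edgeR adjusted p = 0.444 and 0.705). How shared reads were split between the pair is not given in the sources used here, so the level of Pde2a is uncertain to that extent. Slc18a1 overlaps Atp6v1b2, a proton pump subunit on the opposite strand with 26677 to 51050 counts per library, over 590 bases, none of them in an exon of both.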

How the data were processed

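RNA-seq of BMDMs in 3 groups of 3 libraries was analysed from the gene table that the authors deposited, which holds whole-number counts per gene and FPKM values per library. The submitters' processing notes name cutadapt 1.9, HISAT2 2.0.4, StringTie 1.3.4d and edgeR, without roles, and the build hg38, although the gene IDs are mouse: 28294 of 28379 were in GENCODE M21 (GRCm38), and 96.3% of these overlapped the position given there. Whether counting used strand is not given in the sources used here. A count of 4 was 2.22 times as frequent as the mean of the counts 3 and 5, so a count need not be 1 read. The total per library was 65915112 to 68229647.

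Counts were tested with edgeR 4.0.16 (R 4.3.3, filterByExpr, TMM, quasi-likelihood, Benjamini-Hochberg adjustment over 17002 genes, threshold 0.05), in 1 fit of all 9 libraries without a block. Intervals of log2 fold changes used the t distribution with the degrees of freedom of that test. FPKM values served for levels, shares and likeness. Alternatives were DESeq2 1.42.0, limma 3.58.1 on log2(FPKM + 0.1) and log2(FPKM + 1), median-of-ratios size factors, no filter, a stricter filter (CPM of at least 1 in 3 libraries), only the groups compared, the replicate number as a block, each library left out, and counts divided by 4, the last chosen after seeing the data. The scripts were tested on simulated data. Deviations of same-numbered PBS and RANKL libraries correlated at 0.122, 0.219 and 0.155. Those of the vitamin libraries correlated at 0.00625, 0.0428 and 0.107 with same-numbered RANKL libraries and at −0.0216, 0.0217 and 0.0237 with PBS ones. The block fit treated all same-numbered libraries as paired, the vitamin libraries included.

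The 6 members and the 17 gene lists were chosen with earlier results of these data known. Genes were named from the 4 of each list with the largest fold change among those called in RANKL against PBS or vitamins against RANKL, besides near relatives, the 3 genes most like each member and Cyp24a1, Acp5, Ctsk, Oscar and Nfatc1. Not all of these are printed. Any others, such as the highest gene of a family, genes at 0 and single calls, were chosen after their values were seen. Promoters came from RefSeq (GRCm38.p6).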

Additional observations from a re-analysis of the deposited data

How the results depend on the processing

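The direction of the vitamins against RANKL difference was the same for the 6 genes under all 18 alternatives, and 5 or 6 of them were called lower in each. With the replicate number as a block, 825 genes were called in RANKL against PBS, 5873 in vitamins against RANKL and 7041 in vitamins against PBS. In the last 2 comparisons 6 and 3 of the 6 genes were called, so the block changed no call of theirs there. The number of genes called in RANKL against PBS was 614, and it was 1699 with DESeq2, 1736 with only the groups compared and between 126 and 1903 when 1 library was left out. In vitamins against RANKL it was 5725, and between 3199 and 8259 when 1 library was left out. In vitamins against PBS, 3 of the 6 genes were called higher, 1 with limma on log2(FPKM + 0.1), 0 with limma on log2(FPKM + 1) and 1 to 3 when 1 library was left out. The lowest number, 1, came without PBS replicate 1 or without RANKL + Vit D + K replicate 3. The uncalled vitamins against PBS differences changed sign for Cacng8 (log2 fold change between -0.50 and 1.10 with 1 library left out) and for Pde2a (between -0.31 and 0.31). The causes were not tested. Of 918 counts of called genes over the gene lists under alternatives, 756 were within 1.5 times the main count, or both were 0. These counts took both directions together and kept the 6 genes in their lists. The counts given above are by direction and leave the 6 genes out, so this share does not cover them. With 3 libraries per group, exact tests could not pass 0.05, and the levels of Camk2a, Cacng8, Slc6a4, Slc18a1 and Akap6 with PBS and the vitamins rest on 0 to 304 counts per library.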

Other observations

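The 5 genes near zero with PBS were set among all genes with that pattern. In the table, 57 genes had a mean under 0.2 FPKM with PBS and of at least 1 FPKM with RANKL, and Camk2a, Cacng8, Slc6a4, Slc18a1 and Akap6 were 5 of them. The highest with RANKL were osteoclast genes: Dcstamp, needed for cell fusion, with 7.61 FPKM, Car2, a carbonic anhydrase that supplies protons, with 7.16 FPKM, and Oscar with 4.77 FPKM. Of the 52 genes that were not among the 6, 34 had under 20% of the RANKL minus PBS difference left with the vitamins, and the median was 5.14%. The 5 neuronal-type genes, at 2.35% to 13.1%, were all under 20%.

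In 5 of the 57 genes the mean with the vitamins was above the RANKL mean. Cd200, a surface ligand that restrains myeloid cells, had means of 0.115, 3.03 and 7.92 FPKM, so that 268.2% of the difference was left. Tmem158 had 150.9% left, Esco2, a cohesin acetyltransferase, 141.1%, Fbxo48 115.8% and Rad54b, a DNA repair protein, 267.6%. These genes were named after their values were seen, and no test was run on them.

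Of 3 glial markers tested, 1 was called with RANKL against PBS and 1 with vitamins against RANKL, in both cases Mbp. The median log2 fold changes of the 3 were 0.38 and -0.83. Mbp, which encodes myelin basic protein and is also transcribed in blood cells, had means of 30.8 FPKM with PBS, 23.0 with RANKL and 11.8 with the vitamins. It was called lower with the vitamins than with RANKL (log2 fold change -0.83, SE 0.125, edgeR adjusted p = 0.00204), and it was lower in 3 of 3 libraries. Mbp was also called lower with RANKL than with PBS (-0.54, SE 0.124, edgeR adjusted p = 0.0487). That call was lost when any 1 of the PBS or RANKL libraries was left out. Of 4 stromal and osteoblast markers tested, Runx2, the osteoblast transcription factor, was called higher with the vitamins (log2 fold change 1.16, SE 0.212, edgeR adjusted p = 0.00442) and Col1a1, a collagen chain, lower (-4.61, SE 1.13, edgeR adjusted p = 0.0142), the latter at a mean of 0.0571 FPKM with RANKL and not called by limma.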
